A study of Mus musculus with 17 samples.

Results

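The genes followed here in mouse liver were 10 macrophage genes, 5 of them markers of resident Kupffer cells (Clec4f, Cd5l, Marco, Vsig4, and Timd4) and 5 of them markers of lipid-associated macrophages (Trem2, Gpnmb, Cd68, Cd9, and Lgals3). They were taken by gene symbol from the array annotation, which gave 13 of the 41174 probes on the array and 10 of 21439 named genes. Livers of 17 male mice were measured, 1 array per mouse: 4 mice fed chow and given a maltose gavage (chow), 4 fed chow and given 1 ethanol gavage of 5 g/kg (1B), 4 fed a high-fat diet and given maltose (HFD), and 5 fed the high-fat diet and given the ethanol gavage (HFD+1B). Both diets were given for 3 months, and mice were killed 9 hours after gavage. The sample labels name the strain C57BL/6N, whereas the study's methods name C57BL/6J, and no group carries a transgene or deletion. Each array held liver cDNA in the Cy5 channel and a mouse reference RNA in the Cy3 channel, and all values below are log2 ratios of liver to reference unless stated otherwise.

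Kupffer cells are the resident macrophages of the liver sinusoids, where they clear particles, microbes, and damaged cells from portal blood. In fatty liver, part of the macrophages take on a lipid-associated state with high lysosomal, lipid-binding, and phagocytic gene expression, and many of these cells come from monocytes. Clec4f is a lectin restricted to Kupffer cells in mice, Cd5l a secreted scavenger-family protein, Marco a scavenger receptor for bacteria, Vsig4 a complement receptor, and Timd4 a receptor for phosphatidylserine on dying cells. Trem2 is a lipid-sensing receptor, Gpnmb a glycoprotein of lysosomes and the cell surface, Cd68 a lysosomal membrane protein of macrophages in general, Cd9 a tetraspanin, and Lgals3 the lectin galectin-3. Cd9 and Lgals3 also are made by other cells, including bile duct cells. In whole liver, a change in the number of cells of a type cannot be told apart from a change in RNA per cell.

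The probes of Cd68, Cd9, Lgals3, and Trem2 carry the differences described below, and the first 30 bases of each 60-base probe are shown, since these are the stretches of transcript that were read. Trem2 was read by 2 probes, both assigned to the same transcript, which gave different calls in 2 comparisons.
Cd68 probe: ttgggccaaagcttctgctgtggaaatgca
Cd9 probe: cctgcaatgaaaggtactatatttgccaga
Lgals3 probe: gaaagacagtcagccttcccctttgagagt
Trem2 brighter probe: gccaagatgctgggcaccaacttcagatcc
Trem2 dimmer probe: tgttgagtggggaagacagctggatggttg

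Detection differed among the markers. The resident markers Clec4f, Cd5l, Marco, and Vsig4 were well above background in all 17 livers, as were Trem2, Cd68, Cd9, and Lgals3. Timd4 was well above background in 2 livers, 1 chow and 1 HFD+1B, and was not tested. Its mean ratio was highest for chow mice, at 0.16, and lowest for HFD+1B mice, at 0. These signals lie too near background for that order to be interpreted, so a fall of Timd4 is neither shown nor excluded. One Gpnmb probe was well above background in 2 of 4 HFD and 3 of 5 HFD+1B livers but in 0 of 4 chow and 0 of 4 1B livers. The second Gpnmb probe and the second Cd9 probe were well above background in 0 of 17 livers. Thus 9 of the 10 genes, by 10 of 13 probes, passed the filter on dim probes. A gene was called when the limma test gave a Benjamini-Hochberg adjusted p not above 0.05, adjusted over all 34664 tested probes, and where a gene had several tested probes, the brightest one was counted. The median Cy5 signal per array ranged over 43 to 78 units above local background for HFD mice, 70 to 138.5 for HFD+1B, 79.5 to 116 for chow, and 49 to 112.5 for 1B, and 73.9% to 86% of probes were well above background.

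**Figure D1:**
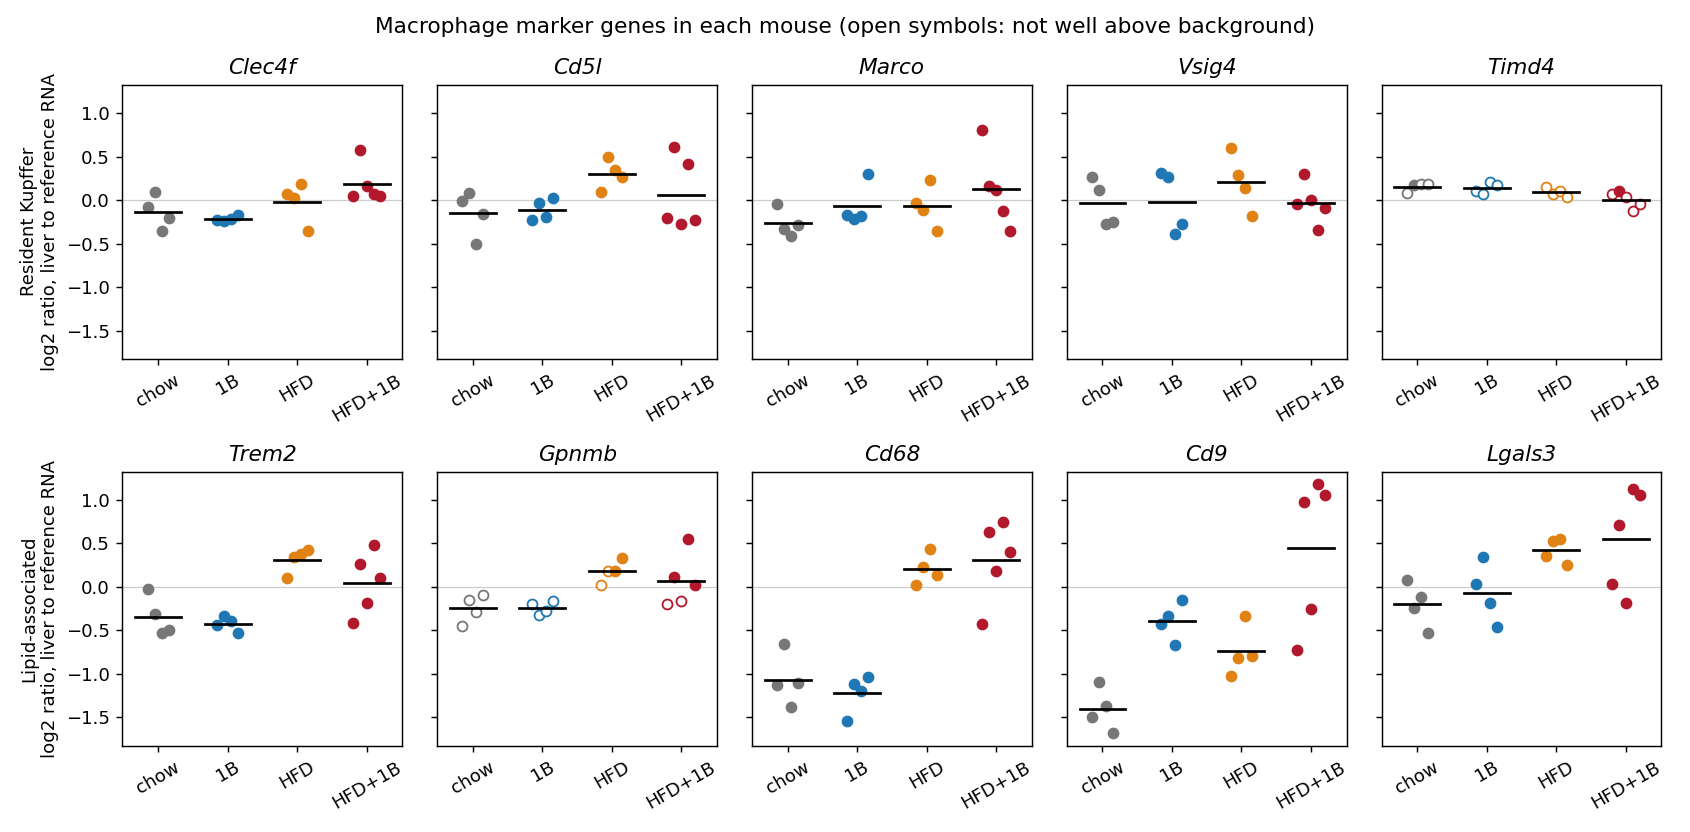
Log2 ratio of liver to reference RNA (y axis) of the 10 genes in each of 17 mice by group (x axis), on the brightest probe of each gene, with a bar at the group mean. Cd68 in all HFD and HFD+1B mice lay above its highest chow value of -0.66, whereas the 4 tested resident markers in the upper row lay between -0.51 and 0.81 in all groups, and open symbols mark values not well above background.

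With the high-fat diet alone, Cd68 and Trem2 rose, and limma called 0 of the 4 tested resident Kupffer markers. In HFD against chow, 2 of the 9 tested genes were called, both of them lipid-associated and both higher, where 11.0% of 19350 tested genes were called. The Cd68 ratio was -1.13, -0.66, -1.38, and -1.10 in the 4 chow mice and 0.02, 0.23, 0.44, and 0.14 in the 4 HFD mice. The groups did not overlap, and Cd68 rose by 1.28 on the log2 scale, or 2.42-fold (SE 0.21, adjusted p = 0.00121, limma). On the same slide, the Cd68 difference was positive on each of 3 slides that held both groups, from 0.89 to 1.55.

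Trem2, the receptor, moved less than Cd68. On its brighter probe, the ratio was -0.03, -0.31, -0.53, and -0.50 in chow and 0.10, 0.34, 0.38, and 0.42 in HFD mice, so that all HFD values lay above all chow values. The rise was 0.65 on the log2 scale, or 1.57-fold (SE 0.16, adjusted p = 0.0148, limma). The dimmer Trem2 probe gave 0.01, -0.79, -0.51, and -0.73 in chow and 0.06, 0.36, 0.67, and 0.72 in HFD mice, a rise of 0.96 (SE 0.22, adjusted p = 0.0118). Without chow mouse 4, the Trem2 difference was 0.60 with an adjusted p of 0.0524, and the count fell from 2 genes to 1.

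Gpnmb, Lgals3, and Cd9 had higher means in HFD than in chow livers without being called. Gpnmb passed the filter on dim probes through HFD and HFD+1B arrays alone, so its tests are against groups not well above background. Its ratio was -0.45, -0.15, -0.29, and -0.09 in chow and 0.02, 0.18, 0.18, and 0.33 in HFD mice, a difference of 0.42 (SE 0.13, adjusted p = 0.0558). No chow liver had Gpnmb well above background. Cy5 signals were therefore compared with chow arrays at the higher of their own signal and the dimmest signal well above background. The HFD level was 1.20-fold higher. The chow mean was 5.93 (log2) with and without that floor. The value is thus a ratio of measured signals near background and not a lower bound. No dye swap was made, so a dye effect on these levels could not be measured. Lgals3 was 0.08, -0.24, -0.12, and -0.53 in chow and 0.35, 0.53, 0.55, and 0.25 in HFD mice, a difference of 0.62 with an adjusted p of 0.12. The Lgals3 values did not overlap between HFD and chow mice, yet the adjusted p stayed above 0.05. Gpnmb did not overlap either, but its chow values were not well above background. The share of all genes without overlap between these groups was not counted, so a lack of overlap only describes the gene named, here and elsewhere. Cd9 was -1.49, -1.09, -1.37, and -1.68 in chow and -1.02, -0.82, -0.33, and -0.79 in HFD mice, a difference of 0.67 with an adjusted p of 0.206, and these groups did not overlap either.

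The binge on top of the high-fat diet was accompanied by a further difference in Cd9. In HFD+1B against chow, 3 of the 9 tested genes were called, again lipid-associated and higher, where 16.3% of all tested genes were called. Cd9 was -0.72, 0.97, -0.25, 1.18, and 1.06 in the 5 HFD+1B mice, and each exceeded the highest chow value of -1.09. It rose by 1.85 on the log2 scale, or 3.62-fold (SE 0.31, adjusted p = 0.000448, limma), and the within-slide differences ran from 0.78 to 2.34, positive on 4 of 4 slides. In HFD+1B against HFD, where 19.4% of all tested genes were called, 1 of the 9 genes was called, Cd9, at 1.18 higher, or 2.27-fold (SE 0.31, adjusted p = 0.0132). HFD+1B mouse 1, at -0.72, and mouse 3, at -0.25, lay within or near the HFD range, and the other 3 mice lay far above it.

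Cd68 in the HFD+1B mice was -0.43, 0.63, 0.18, 0.75, and 0.40, all above the chow mice and on both sides of the HFD mice. It rose by 1.37 against chow, or 2.59-fold (SE 0.20, adjusted p = 0.000116), whereas against HFD the difference was 0.09 with a 95% interval from -0.32 to 0.51. Lgals3 in HFD+1B was 0.03, 0.71, -0.19, 1.12, and 1.06, with 2 of the 5 mice inside the chow range. Its rise against chow was 0.75, or 1.68-fold (SE 0.24, adjusted p = 0.039). This call rested on single mice: without chow mouse 2, 3, or 4, or without HFD+1B mouse 2, 4, or 5, the adjusted p of Lgals3 was 0.0691 to 0.13. Within slides, the Lgals3 difference ran from -0.04 to 1.30.

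The 2 Trem2 probes disagreed on the call in HFD+1B mice. The brighter probe gave -0.42, 0.26, -0.19, 0.48, and 0.10, a difference from chow of 0.39 (SE 0.15, adjusted p = 0.0965), which became 0.49 (adjusted p = 0.046) without chow mouse 1 and 0.50 (adjusted p = 0.0174) without HFD+1B mouse 1. The dimmer probe gave -0.48, 0.52, -0.04, 0.67, and 0.46, a rise of 0.73 (SE 0.21, adjusted p = 0.0258). On both probes, HFD+1B mice 1 and 3 lay within the chow range, and the other 3 lay above it. Gpnmb was -0.20, 0.11, -0.16, 0.55, and 0.02 in HFD+1B, a difference from chow of 0.31 with an adjusted p of 0.126. On measured Cy5 signals near background it was 1.22-fold higher, again not a lower bound.

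**Figure D2:**
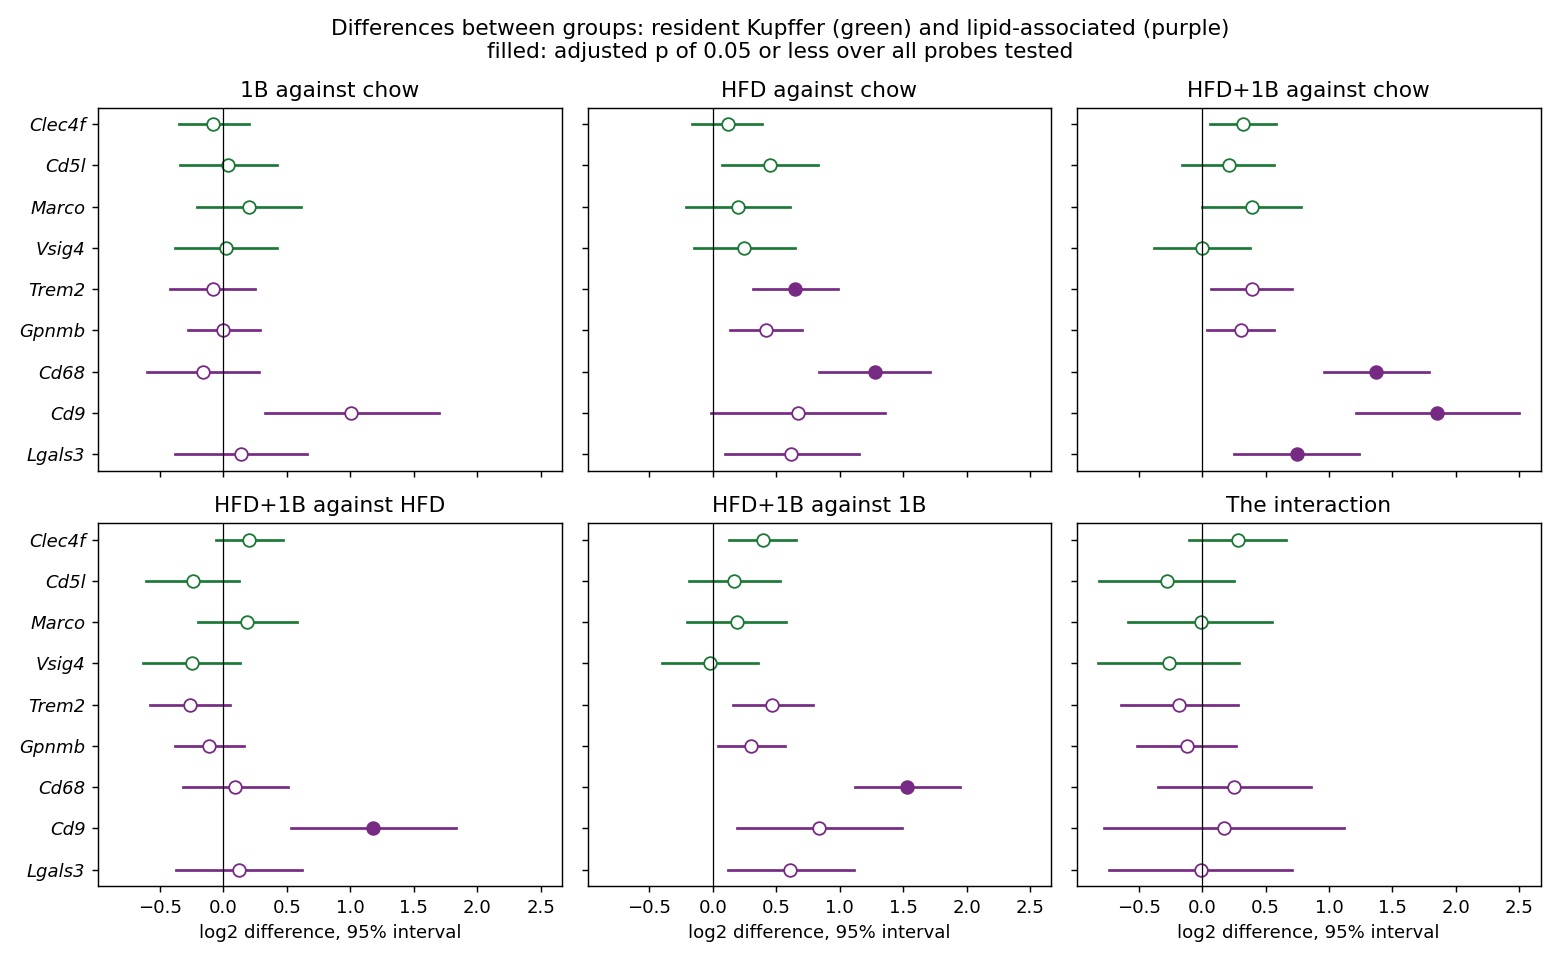
Log2 difference between groups (x axis) with its 95% interval for the 9 tested genes (y axis) in 6 comparisons, resident Kupffer genes in green and lipid-associated genes in purple, filled where the gene was called. Filled symbols are all purple, with Cd68 at 1.28 in HFD and 1.37 in HFD+1B against chow, and Cd9 at 1.85 in HFD+1B against chow.

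The ethanol binge in chow-fed mice left the markers uncalled. In 1B against chow, 0 of the 9 genes were called by limma, where 4.13% of all tested genes were called, and 1 gene, Cd9, had an unadjusted p under 0.05. Cd9 was -0.43, -0.34, -0.67, and -0.15 in the 1B mice, all above the chow mice, a difference of 1.01 (SE 0.33, adjusted p = 0.11). Without HFD+1B mouse 1, the difference was again 1.01 (SE 0.25), with an adjusted p of 0.0267. Cd68 in 1B was -1.54, -1.12, -1.20, and -1.04, and Trem2 was -0.44, -0.34, -0.39, and -0.53, both inside or just below the chow range. The 95% intervals of 1B against chow were -0.60 to 0.28 for Cd68 and -0.42 to 0.25 for Trem2.

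Between the binge groups, Cd68 differed with the diet. In HFD+1B against 1B, 1 of the 9 genes was called, where 11.4% of all tested genes were called: Cd68 was 1.53 higher, or 2.89-fold (SE 0.20, adjusted p = 0.000111). The dimmer Trem2 probe was 0.69 higher (adjusted p = 0.0457) and the brighter one 0.47 (adjusted p = 0.0552). Cd9 was 0.84 higher with an adjusted p of 0.0995, Lgals3 0.61 with 0.118, and Gpnmb 0.30 with 0.159. The count rested on single mice, since it was 2 without chow mouse 1 or 2 or HFD mouse 3 or 4, and 4 without HFD+1B mouse 1 or 3. The interaction, the effect of the binge under the high-fat diet minus that under chow, was called for 0 of the 9 genes by limma, with 0 at an unadjusted p under 0.05, where 4.42% of all tested genes were called. For Cd9 the interaction was 0.17 with a 95% interval from -0.77 to 1.12, and for Cd68 it was 0.25, from -0.35 to 0.86.

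The order of the group means differed between the 2 strongest markers. Cd68 rose from 1B at -1.23 ± 0.22 (SD, n = 4) through chow at -1.07 ± 0.30 and HFD at 0.21 ± 0.18 to HFD+1B at 0.30 ± 0.47 (SD, n = 5), and the neighbors within the chow diet and within the high-fat diet overlapped. Cd9 rose from chow at -1.41 ± 0.25 through HFD at -0.74 ± 0.29 and 1B at -0.40 ± 0.21 to HFD+1B at 0.45 ± 0.87, and HFD overlapped with 1B, and 1B with HFD+1B. Cd68 thus separated the mice by diet, and Cd9 had both single-treatment groups above chow.

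Resident Kupffer markers gave no calls in the main limma fit. In all 6 comparisons, that fit called 0 of the 4 tested resident genes. At an unadjusted p under 0.05 there was 1 in HFD against chow, 2 in HFD+1B against chow, and 1 in HFD+1B against 1B. Alternatives did call resident genes. Clec4f was called in HFD+1B against 1B with the replicate number as a block (adjusted p = 0.0362) and with the mean over probes (adjusted p = 0.0414). Clec4f has 1 probe, so the mean over probes left its difference at 0.40 and changed only the set of tests adjusted over. The Tukey test that the methods name for group data gave a p of 0.0386, not adjusted over probes. With that adjustment the Tukey test did not call Clec4f. Cd5l was called in HFD against chow with the replicate block (adjusted p = 0.0431). Clec4f was -0.08, 0.09, -0.36, and -0.21 among chow mice, -0.23, -0.24, -0.22, and -0.17 among 1B mice, 0.07, 0.02, 0.18, and -0.36 among HFD mice, and 0.05, 0.57, 0.16, 0.07, and 0.05 among HFD+1B mice. The HFD+1B mice lay above all 1B mice and overlapped with chow through 1 chow value. The Clec4f difference was 0.32 against chow (SE 0.13, adjusted p = 0.102) and 0.40 against 1B (SE 0.13, adjusted p = 0.0533), and it was called against 1B without chow mouse 2 (adjusted p = 0.0494), HFD mouse 3 (0.0466), HFD mouse 4 (0.0351), or HFD+1B mouse 1 (0.0481).

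Cd5l was -0.01, 0.08, -0.51, and -0.16 in chow and 0.09, 0.50, 0.34, and 0.27 in HFD mice, and these groups did not overlap. Its difference was 0.45 with an adjusted p of 0.125, and in HFD+1B, at -0.21, 0.61, -0.28, 0.41, and -0.23, it was 0.21 with an adjusted p of 0.509, and -0.07 with the Cy5 channel alone. Marco was 0.81, 0.16, 0.12, -0.12, and -0.36 in HFD+1B mice against -0.04, -0.33, -0.41, and -0.29 in chow, a difference of 0.39 with an adjusted p of 0.185. Vsig4 was -0.05, 0.30, 0.00, -0.34, and -0.09 in HFD+1B and 0.27, 0.12, -0.28, and -0.25 in chow mice, a difference of 0.00 with a 95% interval from -0.38 to 0.38. Marco ran from -0.22 to 0.30 in 1B and from -0.36 to 0.23 in HFD mice, and Vsig4 from -0.39 to 0.31 and from -0.18 to 0.60, each overlapping with chow. In HFD against chow, the 95% interval reached 0.83 for Cd5l, past the Trem2 rise of 0.65, and 0.39 for Clec4f, below it.

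Set side by side, the lipid-associated genes had the larger median difference in the high-fat groups. The median difference from chow was 0.65 over the 5 lipid-associated genes and 0.23 over the 4 resident genes in HFD, and 0.75 and 0.26 in HFD+1B, against a median of 0 over all tested genes. In 1B the medians were 0 and 0.03. Without Gpnmb, left out after its values were seen, the lipid-associated median was 0.66 in HFD, 1.06 in HFD+1B, and 0.03 in 1B. These are descriptions of chosen lists, and the comparisons with chow share the same 4 chow mice. Per mouse, the mean of the lipid-associated genes relative to the chow mean ran from -0.13 to 0.17 among chow mice, from 0.11 to 0.30 among 1B mice, from 0.55 to 0.90 among HFD mice, and from 0.31 to 1.47 among HFD+1B mice. The resident mean was -0.24 to 0.18, -0.10 to 0.12, -0.01 to 0.37, and -0.01 to 0.56 in the same order, overlapping in all groups. The lipid-associated mean minus the resident mean was 0.00 ± 0.13 (SD) for chow mice, 0.14 ± 0.08 for 1B, 0.48 ± 0.21 for HFD, and 0.71 ± 0.55 for HFD+1B. All 4 HFD mice exceeded the highest chow value of 0.16, and 4 of 5 HFD+1B mice did, with mouse 1 at 0.01. Without Gpnmb, these differences were 0.00 ± 0.12, 0.18 ± 0.11, 0.55 ± 0.21, and 0.86 ± 0.60 in the same order.

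**Figure D3:**
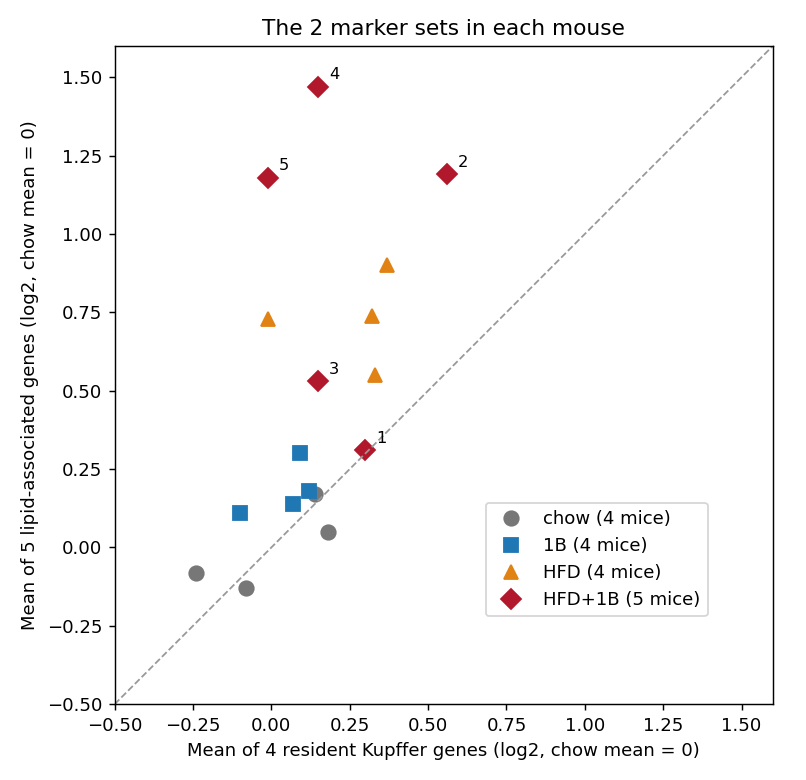
Mean log2 level of the 5 lipid-associated genes (y axis) against that of the 4 tested resident Kupffer genes (x axis) in each mouse, both relative to the chow mean, with HFD+1B mice numbered and a dashed line of equal change. HFD mice and 4 of 5 HFD+1B mice lie above the line, and HFD+1B mouse 1 lies at it with a difference of 0.01.

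Within the HFD+1B group, the same mice were low for each lipid-associated gene. Mice 1 and 3 had the lowest values of the 5 for Cd9, Cd68, Lgals3, Gpnmb, and both Trem2 probes. Gpnmb was not well above background in mice 1 and 3. These mice were picked by the values of these genes, so their lower lipid-associated means were fixed in advance. The means were 0.31 and 0.53 in mice 1 and 3, against 1.19, 1.47, and 1.18 in mice 2, 4, and 5. The resident means did not follow that order, at 0.30 and 0.15 in mice 1 and 3 and 0.56, 0.15, and -0.01 in the others. Some other lists split the same way, and some did not. Mice 1 and 3 were also lowest in the mean of other lipid-associated genes, at 0.46 and 0.65 against 0.97 to 1.1. The same held for other Kupffer cell genes (0.00 and 0.11 against 0.14 to 0.33) and monocyte genes (0.19 and 0.16 against 0.27 to 0.40). It also held for stellate cell genes (0.16 and 0.28 against 0.44 to 0.66) and Kupffer niche factors (-0.18 and 0.01 against 0.06 to 0.15). Mice 1 and 3 were highest in hepatocyte genes, at 0.46 and 0.37 against -0.28 to 0.31, and in neutrophil genes, at 0.33 and 0.19 against 0 to 0.11. Endothelial genes (0.18 and 0.12 against -0.01 to 0.27) and Trem2 signaling genes (0.10 and 0.05 against -0.04 to 0.21) did not split in this way. Cholangiocyte, dendritic cell, B-cell, and T-cell genes did not either. The median Cy5 signals were 121 and 70 units in mice 1 and 3 and 138.5, 85, and 75 in mice 2, 4, and 5, and the low mice lay on different slides. The part of array signal and of other cell types in this split was not tested.

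**Figure D4:**
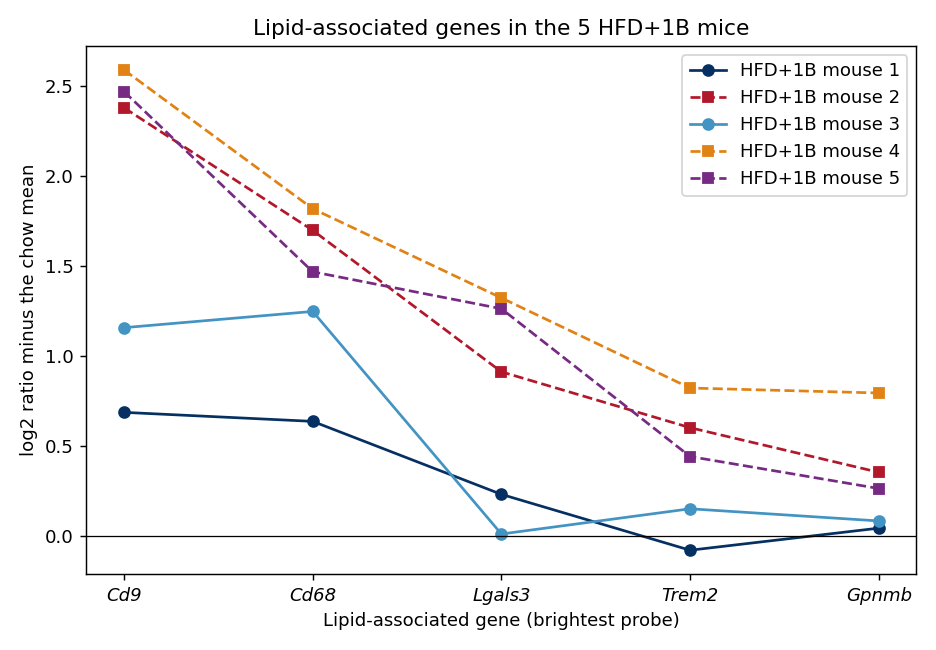
Log2 ratio minus the chow mean (y axis) of the 5 lipid-associated genes (x axis, brightest probe) in each of the 5 HFD+1B mice. Mice 1 and 3, picked by these values and drawn with solid lines, lie below the other mice for every gene, with lipid-associated means of 0.31 and 0.53.

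Part of the other genes of the lipid-associated state rose with the members. Of 22 tested genes on a list of such genes, 11 rose and 0 fell in HFD, 12 rose and 0 fell in HFD+1B, and 1 rose and 1 fell in 1B, all against chow, where 4.49%, 8.90%, and 2.09% of all tested genes were called higher. At an unadjusted p under 0.05, 15 of the 22 differed in HFD by limma, 14 of them higher. Itgax, named after its values were seen, had a lower mean in HFD without being called. Its means were 0.52 in chow, 0.10 in 3 HFD mice, and 0.58 in HFD+1B. In HFD the leading genes were Lgals1 (galectin-1) at 1.20 (SE 0.16, adjusted p = 0.000291), Cd36 (a fatty acid transporter) at 1.80 (SE 0.28, adjusted p = 0.000849), and Plin2 (a lipid droplet coat protein) at 2.03 (SE 0.32, adjusted p = 0.000881). In HFD+1B they were Cd63 (a lysosomal tetraspanin) at 2.70 (SE 0.29, adjusted p = 8.33e-06), Lgals1 at 1.40 (SE 0.15, adjusted p = 9.96e-06), and Fabp4 (a fatty acid-binding protein) at 1.62 (SE 0.19, adjusted p = 1.3e-05). One chow value of Lgals1 was left out as a scanner outlier. Cd36, Plin2, and Cd63 also are expressed by fat-laden hepatocytes. In 1B, Ctsl rose by 0.74 and Lipa fell by 0.88, both named after their values were seen. The first call was lost without chow mouse 3 or 4 or 1B mouse 1, 2, or 4, and the second without chow mouse 3 or 4, 1B mouse 1 or 2, or HFD mouse 2. The list's median difference was 0.62 in HFD and 0.57 in HFD+1B. Leaving out 1 mouse at a time gave 8 to 12 rises in HFD and 11 to 13 in HFD+1B, and median centring or the Cy5 channel alone gave 7 rises in HFD.

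Other Kupffer cell genes were called in both directions. Of 19 tested, 3 rose and 1 fell in HFD, 4 rose and 1 fell in HFD+1B, and 0 rose and 1 fell in 1B, where 11.0%, 16.3%, and 4.13% of all tested genes were called in either direction. In HFD, Adgre1 (F4/80) rose by 0.67 (SE 0.19, adjusted p = 0.0289), C1qb (a complement C1q chain) by 0.88 (SE 0.24, adjusted p = 0.0301), and Clec1b (a C-type lectin) by 0.50 (SE 0.14, adjusted p = 0.034). Without chow mouse 1, 3, or 4 or HFD mouse 3 or 4, the number of rises in HFD was 0. In HFD+1B, C6 (a terminal complement component that hepatocytes also make) fell by 1.18 (SE 0.20, adjusted p = 0.00048), Hmox1 (heme oxygenase-1) rose by 0.89 (SE 0.19, adjusted p = 0.00288), and Slc16a9 rose by 0.55 (SE 0.14, adjusted p = 0.0117). Without chow mouse 3, the rises in HFD+1B numbered 2, and with the Cy5 channel alone the rises were 1 in HFD and 0 in HFD+1B. Named after their values were seen, Id3 fell by 0.85 in 1B, C6 by 0.69 in HFD, and C1qa rose by 0.95 in HFD+1B. The fall of C6 in HFD was lost without any single chow or 1B mouse or HFD mouse 2, 3, or 4.

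Partners of Trem2 were called at shares near those of all genes, 11.0% in HFD and 16.3% in HFD+1B. Of 12 tested genes of its signaling and of lysosomal regulation, 1 rose in HFD and 2 in HFD+1B, and 0 were called in 1B by limma, with 1 at an unadjusted p under 0.05. Tyrobp, the adaptor through which Trem2 signals, rose by 1.06 in HFD (SE 0.27, adjusted p = 0.0199) and by 0.82 in HFD+1B (SE 0.26, adjusted p = 0.0377). Tfe3, a transcription factor of lysosomal genes, rose by 0.37 in HFD+1B (SE 0.09, adjusted p = 0.00734). Leaving out chow mouse 1, 3, or 4 or HFD mouse 3 or 4 left 0 rises in HFD, and leaving out chow mouse 1, 3, or 4 or HFD+1B mouse 2 or 4 left 1 in HFD+1B. With the Cy5 channel alone, 0 rose in either group.

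Monocyte genes and factors of the Kupffer niche also were listed. Of 12 tested genes of monocytes and recruited macrophages, 3 rose and 1 fell in HFD, 2 rose in HFD+1B, and 0 were called in 1B by limma, with 2 at an unadjusted p under 0.05. The shares of all genes called were 11.0%, 16.3%, and 4.13%, so the HFD+1B count was near that of all genes. Plac8 rose by 0.78 in HFD (SE 0.15, adjusted p = 0.00336) and by 1.27 in HFD+1B (SE 0.14, adjusted p = 1.02e-05), Ly6c2, a surface marker of inflammatory monocytes, by 0.64 in HFD (adjusted p = 0.0266), Lyz2, a myeloid lysozyme, by 0.97 in HFD (adjusted p = 0.0276), and Ccl2, a monocyte chemokine, by 0.38 in HFD+1B (adjusted p = 0.0164). The gene that fell in HFD was S100a4, by 0.63, named after its value was seen. Ccr2, the monocyte chemokine receptor, was 0.22 higher in HFD (adjusted p = 0.398) and 0.28 in HFD+1B (adjusted p = 0.259). The rises in HFD numbered 1 without chow mouse 3 or 4 or HFD mouse 2 and 0 with the Cy5 channel alone, and those in HFD+1B numbered 4 without HFD+1B mouse 1 and 1 with Cy5 alone. The fall of S100a4 was lost without chow mouse 2, 3, or 4 or HFD mouse 1, 3, or 4. On the list of 9 niche factors, Nr1h3 encodes LXR-alpha, a transcription factor inside Kupffer cells and hepatocytes rather than a niche signal. Nr1h3 fell by 1.07 in HFD+1B (SE 0.10, adjusted p = 2.82e-06). Tgfb1 rose by 0.52 in HFD+1B (SE 0.16, adjusted p = 0.0394), a call lost without chow mouse 1, 3, or 4 or HFD+1B mouse 2, 4, or 5. In 1B, Nr1h3 fell by 0.45 and Csf1, a macrophage growth factor, rose by 0.62, and in HFD 0 of the 9 were called by limma. The 1B fall was lost without chow mouse 1, 2, or 3 or 1B mouse 1 or 2, a rise in 1B was called only without chow mouse 2, 1B mouse 1, HFD mouse 3, or HFD+1B mouse 1, 2, or 5 among the fits that left out 1 mouse, and with the Cy5 channel alone 0 of the 9 were called against chow in any group.

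**Figure D5:**
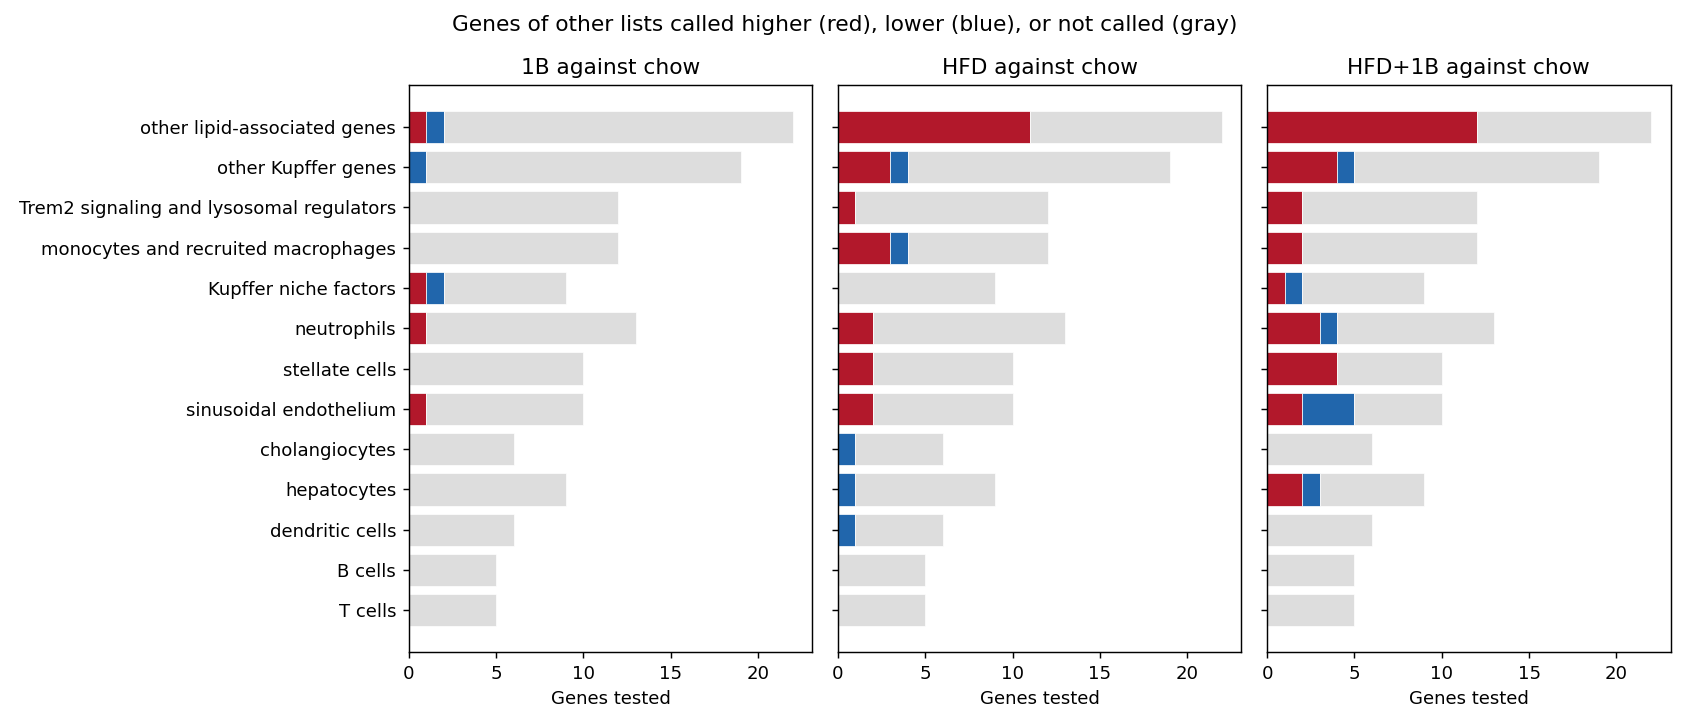
Number of tested genes (x axis) of 13 other gene lists (y axis) called higher in red, called lower in blue, or not called in gray, in 1B, HFD, and HFD+1B against chow. The lipid-associated list shows 11 of 22 rises in HFD and 12 of 22 in HFD+1B, with 1 in 1B.

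Some markers of other liver cells were called in the same groups, and their part in the member differences was not tested. Over all tested genes, 11.0% were called in HFD and 16.3% in HFD+1B against chow, and 19.4% in HFD+1B against HFD, in either direction. For cholangiocytes, which also express Cd9 and Lgals3, 0 of 6 tested genes were called in HFD+1B against chow by limma, with 1 at an unadjusted p under 0.05. In HFD against chow, 0 rose and 1 fell, Krt7, with a difference of -0.55 (SE 0.12, adjusted p = 0.00916, limma). Against HFD, 2 of 6, Krt7 and Sox9, were higher in HFD+1B. The Krt7 mean was 0.19 in chow, -0.37 in HFD, and 0.19 in HFD+1B. The list mean per mouse, relative to chow, ran from -0.08 to 0.07 for chow mice, -0.15 to 0.20 for 1B, -0.48 to -0.06 for HFD, and -0.05 to 0.30 for HFD+1B. The defining markers Krt19 and Epcam differed from chow by 0.44 (adjusted p = 0.122) and 0.09 (adjusted p = 0.718) in HFD+1B. Of 10 stellate cell genes, 2 rose in HFD and 4 in HFD+1B, led by Des at 0.58 and Lrat at 1.04 in HFD+1B, with 0 lower and list means of -0.13 to 0.10 for chow mice, 0.05 to 0.15 for 1B, 0.25 to 0.41 for HFD, and 0.16 to 0.66 for HFD+1B. The 2 stellate rises in HFD were 0 without HFD mouse 3 or with the Cy5 channel alone. The 4 in HFD+1B were 3 without chow mouse 1 or 3 or HFD+1B mouse 5, 6 without HFD+1B mouse 1, and 1 with Cy5 alone. Of 10 sinusoidal endothelial genes, 2 rose and 3 fell in HFD+1B. Lyve1, a hyaluronan receptor that some macrophages also carry, was higher by 3.19 (SE 0.15, adjusted p = 1.07e-09, limma). Cdh5 was higher by 0.78 (SE 0.13, adjusted p = 0.000382), whereas Kdr, the vascular growth factor receptor, fell by 1.05. In HFD, Lyve1 and Stab2 rose by 1.37 and 0.59. The endothelial list mean ran from -0.07 to 0.16 for chow mice, 0.06 to 0.20 for 1B, 0.21 to 0.44 for HFD, and -0.01 to 0.27 for HFD+1B.

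Genes with the most similar profile were found for each called marker by the root mean square difference over the 17 mice, after centring each gene on its mean. For Cd68, whose values spanned 2.30 on the log2 scale, these were Serinc2 (0.23), Apoc2 (0.26), and Slc13a3 (0.27). Cd9, spanning 2.86, was followed most closely by Tbc1d31 (0.34), Gpx3 (0.36), and Arhgdia (0.39). For Trem2, spanning 1.01, they were Nbdy (0.16), Ms4a6b (0.18), and Lyz1 (0.18), the last a lysozyme similar in sequence to Lyz2. Lgals3, spanning 1.65, had Tpm1 (0.24), Itm2c (0.24), and Spink1 (0.25).

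Promoters of the 10 genes were searched on both strands for 4 motifs of macrophage and lysosomal regulators, in RefSeq windows from 250 bases before to 50 after the start on GRCm38. The AP-1 site TGANTCA was found in 3 lipid-associated genes, Cd68 with 2 matches, Trem2 with 1, and Gpnmb with 1, the last 8 bases past the start, and in 0 of the 5 resident genes, and 7.81% of 32851 promoters held it. The E-box CACGTG, the M-box TCATGTG, and the PU.1 site GAGGAAGT were found in 0 of the 10 windows, against 7.15%, 3.77%, and 3.2% of all promoters. The matches upstream of the start are shown for Cd68 and Trem2, the markers that rose in HFD, with the motif in capitals and each sequence on the strand of its gene.
Cd68, chr11:69666293-69666339, minus strand: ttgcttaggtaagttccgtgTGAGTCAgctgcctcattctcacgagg
Cd68, chr11:69666171-69666214, minus strand: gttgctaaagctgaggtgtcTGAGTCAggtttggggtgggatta
Trem2, chr17:48346372-48346400, plus strand: ctcacgcccttctccctcctTGAATCAca
A match is a description of these letters only, and binding was not measured.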

How the data were processed

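Liver RNA of 17 mice was hybridized on 2-color Agilent arrays on 5 slides, each holding several groups. The authors extracted spots with Feature Extraction 11.5.1.1 and deposited median foreground and background intensity per channel, without normalization. They also deposited a table of log2 ratios of processed signals, which was checked against the scanner files (largest difference 2.7e-06, with 0 value columns left over) and used as an alternative. No dye swap was made, so a dye effect is common to all groups.

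From 43379 non-control spots, background was corrected by normexp (offset 50), outlier spots were left out, each array was normalized by loess, and replicate spots were averaged (R 4.3.3, limma 3.58.1). The offset compresses ratios of dim probes. Probes well above background in Cy5 on at least 4 arrays, with a value in every group, were tested: 34664 probes of 19350 genes, with 3424 missing values. Group means were fitted with limma (13 residual degrees of freedom) and 6 comparisons made with Benjamini-Hochberg adjustment over all probes. Named genes besides the 10 markers are, per list, the 3 of smallest adjusted p among those called in HFD and in HFD+1B against chow, with exceptions stated. Members and lists were chosen with earlier results of these data known. Lists were written from general knowledge and are described by counts. The calculation was tested on simulated data. Alternatives were background, normalization, channel, filter, outliers, slide, replicate number, probe choice, call rule, test, and each mouse left out.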

Additional observations from a re-analysis of the deposited data

Results flagged for a closer look

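In 40 sets of values (10 tested probes in 4 groups), 2 held a mouse whose gap to its nearest neighbor was large against the range of its group, and chance gives about 1 in 20, or 2 of 40. HFD+1B mouse 2 was highest for Clec4f, with a gap of 0.785 of the group's range, at 0.57 against 0.05 to 0.16 in the other 4 mice. 1B mouse 4 was highest for Marco, with a gap of 0.899 of the range, at 0.30 against -0.22 to -0.17 in the others. Neither gene was called in the main limma fit in a comparison of its group. Clec4f was called in HFD+1B against 1B under some alternatives, as given above.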

How the results depend on the processing

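Cd68 in HFD and HFD+1B and Cd9 in HFD+1B kept their calls against chow in all 17 fits that left out 1 mouse and under all 12 other settings, and 0 called member differences changed sign. Differences that were not called did: Clec4f in HFD against chow was -0.09 with median centring, Cd5l in HFD+1B against chow -0.07 and Lgals3 in HFD+1B against HFD -0.09 with Cy5 alone, and Cd68 in HFD+1B against HFD -0.02 without HFD+1B mouse 4. Of the counts of called members, 150 of 172 stayed within 1.5 times the main count. In HFD against chow the count was 1 with median centring, the 2-fold rule, or the adjusted Tukey test of the methods, and 1 to 3 with 1 mouse left out. In HFD+1B against HFD it was 0 with Cy5 alone (Cd9 adjusted p = 0.0836) or the adjusted Tukey test. In HFD+1B against 1B it was 2 with no background subtraction, median centring, Cy5 alone, the slide as a block, or the Tukey test, 3 with the mean over probes, and 1 to 4 with 1 mouse left out. In 1B against chow it was 1 (Cd9) by the 2-fold rule and 0 to 1 with 1 mouse left out. In HFD+1B against chow, leaving out 1 mouse gave 2 to 4. The call of Lgals3 in HFD+1B held under 5 of the 12 other settings, and that of Trem2 in HFD under 9. Near background the offset matters: Gpnmb in HFD was 0.42 here and 3.40 in the deposited table (adjusted p = 0.0193).

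Samples with the same replicate number correlated over 0.1 in 16 of 24 pairs (-0.13 to 0.47), and 9 of 17 samples correlated best with their own number. With a shared slide as well, 13 of 14 same-number pairs did so (median 0.24), and on different slides 3 of 10 did. Pairs with neither in common did so in 16 of 77 (median -0.05). Mice that shared number and slide were thus more alike. The main fit did not pair the mice by number or slide, and a block for each was run as an alternative. With the replicate block, the count was 4 in HFD against chow, with Cd5l and Gpnmb added, and 2 in HFD+1B against 1B, with Clec4f added, and Lgals3 in HFD+1B lost its call (adjusted p = 0.0957). Median centring moved the share of called genes that were higher, over all genes, from 40.6% to 13.6% in HFD against chow, from 54.5% to 66.2% in HFD+1B against chow, from 56.8% to 89.1% in HFD+1B against HFD, from 54.9% to 75.5% in HFD+1B against 1B, from 50.6% to 40.3% in 1B against chow, and from 61.2% to 93.3% in the interaction, and shifted the median of all genes to 0.14 in HFD+1B against HFD, and that of the interaction to 0.15. Cy5 alone gave 25.8% in HFD against chow and 86.4% in the interaction. The cause of these changes was not tested. Timd4 and Gpnmb are limited by signal over background.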

Other observations

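Markers of blood and parenchymal cells were listed beside the macrophage genes. Of 13 neutrophil genes, 2 rose in HFD and 3 rose and 1 fell in HFD+1B against chow. Over all tested genes, 11.0% were called in HFD, 16.3% in HFD+1B, and 4.13% in 1B, in either direction against chow. The neutrophil count in HFD was near that of all genes. These shares apply to the hepatocyte and dendritic cell counts as well. S100a8, a calprotectin subunit, rose by 1.46 (SE 0.10, adjusted p = 1.35e-07) and S100a9 by 1.04 (SE 0.20, adjusted p = 0.00162) in HFD+1B, whereas Csf3r, the receptor of granulocyte colony-stimulating factor, fell by 1.04 (SE 0.23, adjusted p = 0.00469). S100a8 also rose in 1B, by 0.46 (adjusted p = 0.022), and in HFD, by 0.55 (adjusted p = 0.00426). Its signal was well above background in 12 of 17 livers, so some of its values lie near background, where the offset compresses ratios. Of 9 hepatocyte genes, Fgb and Tat rose by 1.90 and 1.43 and Serpina1b fell by 0.96 in HFD+1B, and Tat fell by 1.36 in HFD. One HFD value of Tat and one 1B value of Fgb were left out as scanner outliers. The fall of Tat in HFD was lost without any single chow mouse or HFD mouse 3 or 4. The neutrophil rise in 1B was lost without chow mouse 2, 3, or 4 or 1B mouse 1 or 4, and the 2 in HFD were 1 without chow mouse 4 or HFD mouse 3. For dendritic cells 1 of 6 genes, Flt3, fell in HFD, by 0.84. Of 5 B-cell and 5 T-cell genes, 0 were called by limma against chow in any group. At an unadjusted p under 0.05 there was 1 of each in HFD, and 1 T-cell gene in HFD+1B.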
